A study of Mus musculus with 10 samples.

Results

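The comparison set 2 libraries of Flk1-positive cells against 2 libraries of doxycycline-treated samples that were not Flk1-positive, which are 4 of the 10 libraries of the series, chosen by their labels. All 10 came from mouse embryoid bodies, aggregates of differentiating embryonic stem cells, of an iHA-Etv2 line that carries a doxycycline-inducible, HA-tagged copy of the transcription factor Etv2. Both groups compared were treated with doxycycline and collected at day 2.5, and the labels separate them only by Flk1 status, marked true or false. The labels do not say whether the samples marked false were unsorted or sorted as negative, what dose of doxycycline was used, or whether replicates came from separate cultures. The p-values below therefore reflect only how these libraries vary, and that variation may be technical. The doxycycline samples are called induced samples here, and untreated embryoid bodies of day 2.5 are quoted as a reference level where that helps.

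Flk1, the product of Kdr, is the main receptor for vascular endothelial growth factor and marks the mesoderm from which blood and endothelial cells arise. Etv2 is an ETS-family factor that both lineages need, and it acts upstream of blood and endothelial regulators such as Tal1, Gata2, Fli1 and the SoxF factors. In embryoid bodies the Flk1-positive stage follows the loss of pluripotency and a passage through cells like those of the primitive streak, the region of the embryo where mesoderm and endoderm form under Nodal, Wnt and FGF signals.

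Etv2 itself, at chromosome 7:30633616-30635852 on the minus strand of GRCm38, differed little between the groups. It stood at 272 and 255 CPM (counts scaled to a common library size by TMM) in the induced samples and 323 and 303 CPM in the Flk1-positive samples. The 2 groups did not overlap, with the Flk1-positive pair 1.19-fold higher by the ratio of means, but the difference was not past the threshold (log2 fold change 0.25 ± 0.11, adjusted p = 0.0762; edgeR quasi-likelihood test over all genes, Benjamini-Hochberg adjustment). It did pass under some other settings at nearly the same size, for instance without doxycycline day 2 replicate 1 (log2 0.25, adjusted p = 0.00313) or replicate 2 (log2 0.25, adjusted p = 0.00307). These counts do not separate the induced transgene from the endogenous gene. Untreated samples held 6.57 and 7.5 CPM.

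Kdr, at chromosome 5:75932827-75978458 on the minus strand, followed the label; it encodes Flk1, so it checks the labels and is not a finding. Its level was 405 and 433 CPM in the induced samples and 1008 and 986 CPM in the Flk1-positive samples, 2.38-fold higher (log2 fold change 1.25 ± 0.14, adjusted p = 5.76e-06). All 4 libraries were far above the 7.05 and 7.42 CPM of untreated samples. In these bulk samples, fewer cells of a type and less RNA per cell cannot be told apart, for Kdr and for every gene below.

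At this nearly equal Etv2 level, 6086 of 14548 tested genes (41.8%) passed an adjusted p of 0.05, 2982 of them higher (20.5%) and 3104 lower (21.3%) in Flk1-positive samples. Higher genes had a median log2 fold change of 0.69 and lower genes of -0.65. The shares of 20.5% and 21.3% are the background for each list and family count below. More than 4-fold differences were found for 237 higher and 374 lower genes, and more than 16-fold differences for 16 and 88. The 2 groups did not overlap for 75.5% of all tested genes, so a lack of overlap between pairs of libraries is common here and carries little by itself. Without induced replicate 2, the number of higher genes was 1909.

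**Figure D1:**
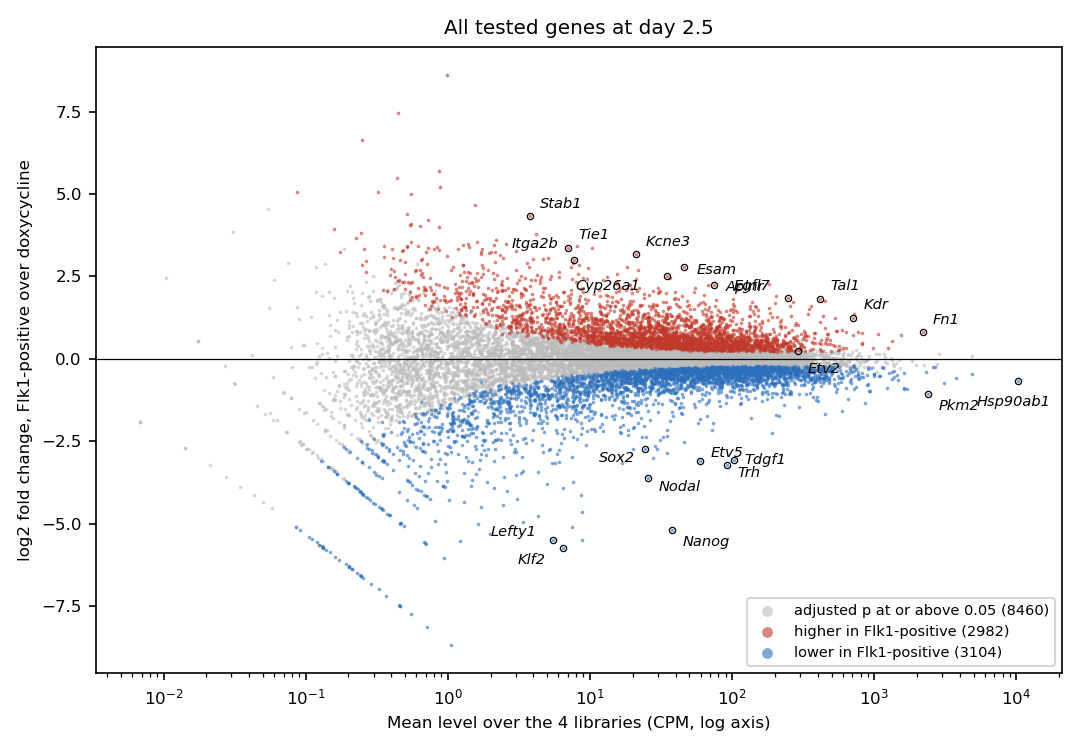
Each point is a tested gene, placed by its mean level over the 4 libraries (CPM, log axis) and by its log2 fold change of Flk1-positive over induced samples; red and blue mark the 2982 higher and 3104 lower genes past the threshold. The few genes at 0 in all 4 libraries are not drawn, circled genes are named, Etv2 lies close to the zero line, and Nanog and Klf2 lie more than 5 log2 units below it.

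Genes of endothelial cells and of early blood were among the largest gains. Among genes that reached 5 CPM in the higher group and whose libraries did not overlap, the 15 with the largest rise included Tie1, an orphan receptor of the Tie family, Stab1, a scavenger receptor of sinusoidal endothelium, Ptprb, the endothelial phosphatase VE-PTP, Itga2b, the integrin chain CD41 of the first blood cells and of platelets, and Kcne3, a potassium channel subunit. Tie1 was at 1.13 and 1.33 CPM in induced and 12.7 and 12.8 CPM in Flk1-positive samples (log2 fold change 3.37 ± 0.29, adjusted p = 4.49e-07). Stab1 went from 0.494 and 0.202 to 6.94 and 7.42 CPM (log2 fold change 4.34 ± 0.50, adjusted p = 8.68e-06), and Kcne3 from 4.78 and 3.58 to 36.5 and 38.7 CPM (log2 fold change 3.17 ± 0.22, adjusted p = 5.39e-08). In all 3 genes both induced values were low. That the 2 groups did not overlap was a condition for naming these genes and is not a result.

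Itga2b was at 1.92 and 1.5 CPM in induced and 13.2 and 14.1 CPM in Flk1-positive samples (log2 fold change 2.99 ± 0.28, adjusted p = 1.13e-06), and Ptprb at 1.15 and 2.92 and 14.2 and 14.9 CPM (log2 fold change 2.84 ± 0.44, adjusted p = 1.35e-04). The induced libraries differed from each other for Ptprb, and a lack of overlap with the Flk1-positive pair was again a condition of the choice. Of the other 10, D17H6S56E-3, Fam65b, Tnfrsf25, Slc2a4rg-ps, Tmem149, Pkhd1l1 and D7Ertd143e rose by 2.78 to 3.41 log2 units. The other 3 were the small nucleolar RNA rows Snord52, Snord47 and Snord2, described further on. With length and GC trends removed, Snord47 had a log2 fold change of 1.06 and was no longer past the threshold (adjusted p = 0.0741).

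The 5 VEGF receptors and co-receptors rose, and of the 10 genes of the list with their ligands 7 rose and 1 fell. Kdr is 1 of those 5 and 1 of those 7. It encodes the marker, so its rise checks the labels and is not a finding. Flt1, a VEGF receptor that also acts as a decoy, was at 58.1 and 58.8 CPM in induced and 161 and 153 CPM in Flk1-positive samples (log2 fold change 1.43 ± 0.13, adjusted p = 7.35e-07). Flt4, the receptor of lymphatic growth factors, stood at 169 and 190.0 and 398 and 359.9 CPM (log2 fold change 1.08 ± 0.11, adjusted p = 3.63e-06). The co-receptors Nrp2 (0.70 ± 0.12) and Nrp1 (0.86 ± 0.21) rose by less, and Nrp1 was not past the threshold without induced replicate 1 (log2 0.75, adjusted p = 0.0599) or with DESeq2 (adjusted p = 0.0565). Among the ligands Vegfb fell (108 and 116 against 69 and 66.3 CPM, log2 fold change -0.73 ± 0.09, adjusted p = 2.44e-05), while Vegfa rose from 9.59 and 8.81 to 15.8 and 14.4 CPM (log2 fold change 0.72 ± 0.20, adjusted p = 0.00859). The call for Vegfa was lost without induced replicate 2 or without Flk1-positive replicate 1, and that for Figf, another ligand (log2 fold change 0.88 ± 0.32, adjusted p = 0.0373), was lost without any one of the 4 libraries. Pgf and Vegfc did not pass (adjusted p = 0.966 and 0.128).

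Tek, the receptor for angiopoietins, rose 2.85-fold, from 23.9 and 28.2 to 73.1 and 75.3 CPM (log2 fold change 1.51 ± 0.15, adjusted p = 2.65e-06). Its ligand Angpt1 stood near 1 CPM in the induced samples and fell (1.26 and 1.01 to 0.248 and 0.212 CPM, log2 fold change -2.27 ± 0.74, adjusted p = 0.023), a call that was lost without any one of the 4 libraries.

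Endothelial effector genes mostly rose: 22 of 30 tested members rose and 1 fell, with a median log2 fold change of 1.16 against -0.00 over all genes. Aplnr, the apelin receptor of vascular precursors, rose from 25.9 and 26 to 123 and 121 CPM (log2 fold change 2.24 ± 0.11, adjusted p = 1.52e-09). Arhgef15, a signalling gene of endothelium, rose from 39.8 and 41.8 to 177 and 173 CPM, and Egfl7, a secreted protein of endothelium, from 107 and 108 to 384 and 389 CPM. These genes were named for a small adjusted p, which favours pairs of libraries that are tight and well apart.

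Arap3 (1.68 ± 0.10), Rasip1 (1.24 ± 0.12) and Nos3, the endothelial nitric oxide synthase (2.13 ± 0.26), rose as well. The one member that fell was Apln, the ligand of Aplnr, at 9.53 and 9.65 CPM in induced and 2.52 and 4.56 CPM in Flk1-positive samples (log2 fold change -1.47 ± 0.20, adjusted p = 3.24e-05). Ligand and receptor thus stood in opposite order in the 2 groups. Vwf, the von Willebrand factor of blood vessels and platelets, reached only 3.68 and 2.54 CPM, from 0.412 and 0.231 CPM (log2 fold change 3.25 ± 0.55, adjusted p = 2.54e-04).

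Promoter sequence is shown for 5 of the genes that differed, from RefSeq (build GRCm38.p6), as the 250 bases before an annotated start, 5′ to 3′ on the gene's strand. Egfl7 had 3 annotated starts and Kcne3 and Nanog 2 each. The first listed was used, and another start would give another window. Kdr encodes the marker, Tie1, Egfl7 and Kcne3 rose and Nanog fell. Capitals mark GGAAGT, a core bound by ETS factors, or AACAGGAA, a forkhead and ETS composite motif, on either strand (ACTTCC and TTCCTGTT on the other). In Kcne3 the 2 motifs overlap. These windows were picked because each holds a match, so that they hold one is not a result.
Kdr (chr5:75978456-75978705, minus strand): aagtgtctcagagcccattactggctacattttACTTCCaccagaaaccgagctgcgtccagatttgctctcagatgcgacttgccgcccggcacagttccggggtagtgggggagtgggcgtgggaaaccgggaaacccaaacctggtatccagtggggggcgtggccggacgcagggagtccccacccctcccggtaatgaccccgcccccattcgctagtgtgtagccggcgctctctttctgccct
Tie1 (chr4:118489850-118490099, minus strand): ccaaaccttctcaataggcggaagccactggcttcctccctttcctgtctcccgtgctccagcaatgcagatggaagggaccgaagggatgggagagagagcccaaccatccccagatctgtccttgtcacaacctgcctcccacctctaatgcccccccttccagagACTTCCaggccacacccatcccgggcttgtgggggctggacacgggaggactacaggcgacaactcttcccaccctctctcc
Egfl7 (chr2:26580833-26581082, plus strand): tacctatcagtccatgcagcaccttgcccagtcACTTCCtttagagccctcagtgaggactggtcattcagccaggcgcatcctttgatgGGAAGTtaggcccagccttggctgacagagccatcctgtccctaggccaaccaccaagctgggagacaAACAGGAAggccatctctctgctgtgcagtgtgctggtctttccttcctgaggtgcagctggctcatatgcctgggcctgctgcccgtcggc
Kcne3 (chr7:100176420-100176669, plus strand): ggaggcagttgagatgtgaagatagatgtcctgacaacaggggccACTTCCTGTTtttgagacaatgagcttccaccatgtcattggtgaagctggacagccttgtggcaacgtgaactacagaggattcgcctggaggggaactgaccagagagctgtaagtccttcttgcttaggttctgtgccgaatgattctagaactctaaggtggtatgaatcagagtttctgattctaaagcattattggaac
Nanog (chr6:122707239-122707488, plus strand): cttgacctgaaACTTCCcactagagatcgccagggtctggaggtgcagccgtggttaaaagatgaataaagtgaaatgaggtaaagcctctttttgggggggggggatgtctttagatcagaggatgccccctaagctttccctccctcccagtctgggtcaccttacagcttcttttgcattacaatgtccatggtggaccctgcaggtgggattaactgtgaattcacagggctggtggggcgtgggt

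Among 14340 promoter windows of that length that belong to tested genes, 21.6% held GGAAGT on either strand, against 22.9% of 2979 windows of higher genes and 19.7% of 3106 windows of lower genes. For genes more than 4-fold higher it was held by 34 of 160 windows, and for genes more than 4-fold lower by 52 of 340. AACAGGAA was held by 1.81% of the windows of tested genes, 2.08% of those of higher genes and 1.64% of those of lower genes, and by 7 of 160 and 10 of 340 windows past 4-fold. The GATA core AGATAA was held by 5.75%, 5.94% and 5.60%, and by 17 of 160 and 23 of 340. Over all 32851 windows in the table, tested or not, the shares were 19.7%, 2.25% and 9.99%. Windows were matched by symbol, which 11225 of the 14548 tested genes had, and genes can have several. These shares are a description of letters and say nothing on binding.

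Genes of endothelial junctions and the cell surface split. Of 14 tested, 9 rose and 3 fell. Esam, an adhesion molecule of endothelial junctions, rose 6.86-fold, from 12 and 11.4 to 83 and 77.6 CPM (log2 fold change 2.78 ± 0.14, adjusted p = 1.85e-09). Eng, the BMP co-receptor endoglin (0.96 ± 0.09), Cd34 (1.04 ± 0.15), Mcam (0.80 ± 0.14) and Icam2 (2.03 ± 0.40) also rose.

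Cdh5, which encodes the junction protein VE-cadherin, is among the genes that define endothelium, and it did not differ past the threshold: 27.7 and 31.2 CPM in induced and 29.8 and 33.7 CPM in Flk1-positive samples (log2 fold change 0.11 ± 0.16, adjusted p = 0.617). The values of the 2 groups overlapped, and all were far above the 0.087 and 0.249 CPM of untreated samples. Pecam1, the adhesion molecule CD31, fell, from 7.06 and 9.65 to 5.29 and 5.51 CPM (log2 fold change -0.63 ± 0.23, adjusted p = 0.0383). That call was lost without induced replicate 2, without either Flk1-positive library or without untreated day 2 replicate 2, with adjusted p up to 0.308, and with limma-voom. Podxl and Jam2 also fell (-0.79 ± 0.09 and -2.62 ± 0.43).

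Among transcription factors, all 3 SoxF genes rose. Sox17 went from 9.83 and 11.8 to 45 and 37.8 CPM (log2 fold change 1.94 ± 0.21, adjusted p = 5.33e-06), Sox18 from 138 and 131 to 338 and 269 CPM (log2 fold change 1.17 ± 0.13, adjusted p = 5.92e-06) and Sox7 from 52.2 and 58.9 to 156 and 151 CPM (log2 fold change 1.47 ± 0.19, adjusted p = 2.94e-05). These 3 factors act in the formation of arteries and lymphatic vessels. The forkhead genes Foxc1, Foxo1 and Foxp1 fell (-1.53 ± 0.37, -0.33 ± 0.11 and -0.39 ± 0.13), but calls were lost without some libraries: those for Foxo1 and Foxp1 without any one of the 4 and that for Foxc1 without Flk1-positive replicate 1.

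The ETS family, to which Etv2 belongs, changed in both directions. Of 20 members, 6 rose and 5 fell; without induced replicate 1 or without Flk1-positive replicate 2, 3 rose. Fli1, active in blood and vessels, rose from 90.9 and 96.5 to 246 and 298 CPM (log2 fold change 1.53 ± 0.14, adjusted p = 6.46e-07), and its close relative Erg from 12.2 and 10.9 to 23 and 27.4 CPM (log2 fold change 1.13 ± 0.23, adjusted p = 0.00128). Ets1 rose as well, from 77.7 and 76.1 to 144 and 152 CPM (0.94 ± 0.13).

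The 3 genes of the PEA3 group, which respond to FGF and ERK signalling, fell. Etv5 dropped from 106 and 107 to 12.4 and 12.2 CPM (log2 fold change -3.11 ± 0.09, adjusted p = 1.85e-11), Etv4 from 8.49 and 9.88 to 2.64 and 2.49 CPM and Etv1 from 11.7 and 10.4 to 4.5 and 3.66 CPM. Untreated samples held more of each, with 406 and 376 CPM of Etv5. Elk3 was 135 and 144 CPM in induced and 138 and 132 CPM in Flk1-positive samples (log2 fold change -0.05 ± 0.10, adjusted p = 0.745) and Fev 13.3 and 10.8 and 13 and 14.8 CPM (log2 fold change 0.20 ± 0.23, adjusted p = 0.506), so both were not past the threshold, with overlapping values.

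The Tal1 complex, which binds DNA with GATA factors through Lmo2 and Ldb1, was covered by a list that also holds paralogues and cofactors. Of 15 members and partners, 8 rose and 1 fell (0 fell without induced replicate 2 or either Flk1-positive library, and 2 without either doxycycline day 2 library). Of the complex itself Tal1, Lmo2, Ldb1 and Gata2 rose. Tal1, the basic helix-loop-helix factor at the start of blood formation, rose 3.55-fold, from 177 and 190.4 to 662 and 640.3 CPM (log2 fold change 1.83 ± 0.10, adjusted p = 7.03e-09). Gata2 rose from 176 and 184 to 549 and 479 CPM (log2 fold change 1.51 ± 0.12, adjusted p = 2.88e-07) and the bridging protein Lmo2 from 310.2 and 306 to 589.5 and 590.3 CPM (log2 fold change 0.94 ± 0.08, adjusted p = 4.10e-07). Untreated samples held 0.827 and 1.24 CPM of Tal1 and 2.09 and 1.62 CPM of Gata2.

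Lyl1, a paralogue of Tal1, rose from 2.69 and 2.25 to 19.2 and 14.4 CPM (log2 fold change 2.77 ± 0.34, adjusted p = 1.66e-05), the largest fold in this list. The corepressor Cbfa2t3 (1.27 ± 0.18) and the GATA cofactor Zfpm1 (1.52 ± 0.11) rose too. Gata1, the erythroid GATA factor, was at 1.26 and 0.809 CPM in induced and 1.98 and 2.17 CPM in Flk1-positive samples, a difference not past the threshold (adjusted p = 0.136; 0.0449 with limma-voom).

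Regulators of blood commitment were mixed: of 14 tested, 8 rose and 2 fell, and 4 to 5 rose when induced replicate 1 or either Flk1-positive library was left out. Runx1, needed for definitive blood, rose from 5.69 and 5.86 to 11 and 10.6 CPM (log2 fold change 0.90 ± 0.21, adjusted p = 0.00279), Ikzf2 from 7.39 and 7.39 to 22 and 22.8 CPM and Mecom from 4.09 and 4.59 to 8.34 and 11.9 CPM. Bcl11a, a repressor best known from the globin switch, fell from 22.6 and 29.8 to 6.65 and 5.83 CPM (log2 fold change -2.06 ± 0.16, adjusted p = 1.27e-07). Among early blood products and receptors 6 of 10 rose and 3 fell, but 2 or 3 rose when induced replicate 1 or either Flk1-positive library was left out. The surface molecules Thy1 (-0.98 ± 0.16) and Cd44 (-1.10 ± 0.24) fell. The embryonic globin Hbb-bh1 had 0 counts in all 4 libraries.

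**Figure D2:**
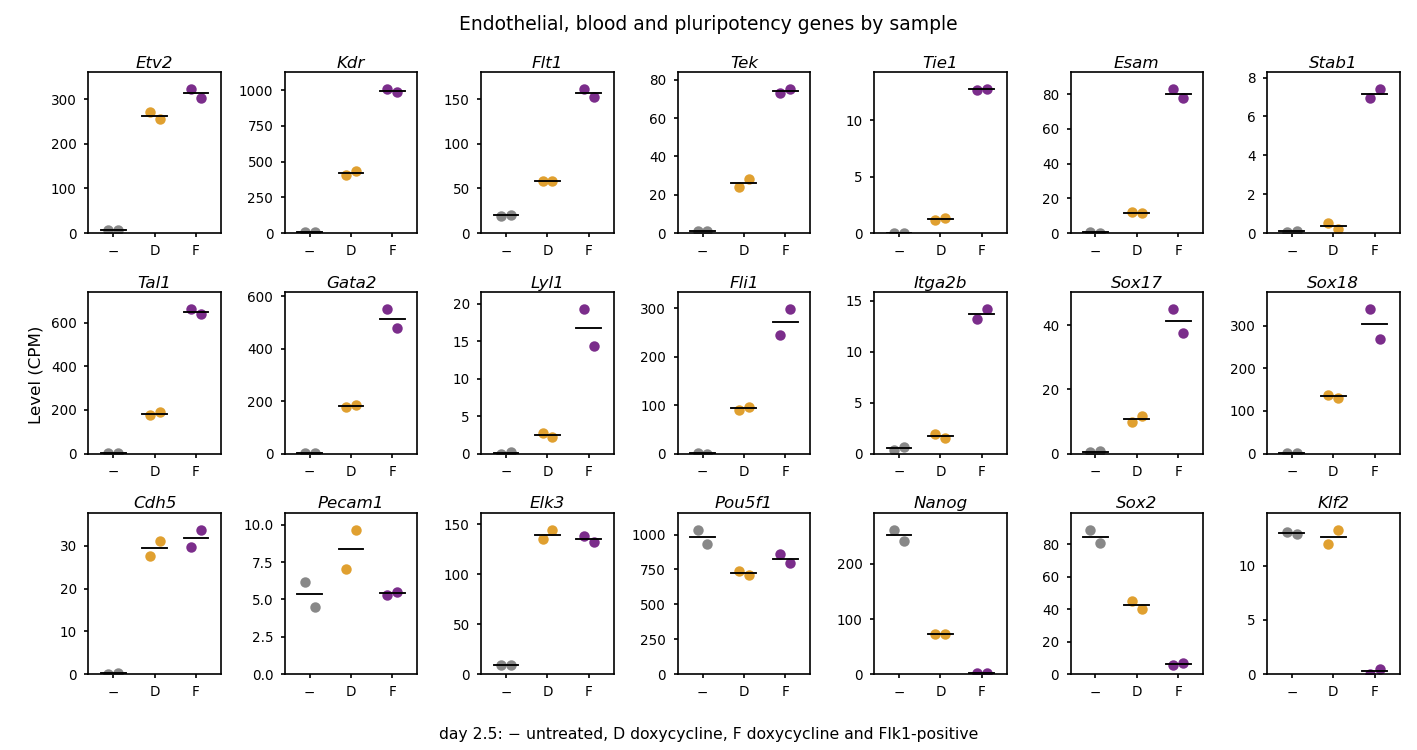
Each panel gives the level of 1 gene (CPM, axis from 0) in the 2 untreated, 2 induced and 2 Flk1-positive samples of day 2.5; points are samples and bars are group means. Tie1, Esam, Stab1 and Itga2b are low in the induced samples and high in the Flk1-positive pair, Cdh5 and Elk3 overlap between those groups, and Nanog, Sox2 and Klf2 are lowest in the Flk1-positive pair.

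Notch and BMP genes changed in both directions, as did all tested genes (20.5% higher and 21.3% lower). In the Notch pathway 8 of 16 genes rose and 4 fell. The receptors Notch1 (110.3 and 114 to 214 and 195 CPM, 0.87 ± 0.10), Notch2 (0.85 ± 0.12) and the endothelial Notch4 (1.13 ± 0.19) rose, as did the ligand Jag1 (0.72 ± 0.11) and the target gene Hey1 (24 and 24.9 to 57.2 and 60.4 CPM, log2 fold change 1.26 ± 0.13, adjusted p = 2.77e-06). Notch3, a receptor of mural cells, fell from 156 and 148 to 77 and 67.7 CPM (log2 fold change -1.07 ± 0.10, adjusted p = 1.42e-06).

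In the BMP pathway 8 of 21 rose and 4 fell, the latter 1 or 2 without Flk1-positive replicate 2 or induced replicate 1. The endothelial receptor Acvrl1 rose from 3.74 and 4.27 to 22.8 and 21.7 CPM (log2 fold change 2.47 ± 0.27, adjusted p = 5.55e-06). Id3 (1.22 ± 0.17) and Smad6 (1.19 ± 0.20), which BMP signalling can induce, rose, as did the ligand Bmp4, from 16.4 and 14.5 to 28.9 and 29.7 CPM (0.92 ± 0.18). Signalling itself was not measured.

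Genes of pluripotent cells were among the largest losses. Of 24 pluripotency genes, 17 fell and 3 rose. Nanog, at chromosome 6:122707489-122714633, fell from 73.5 and 73.4 to 1.45 and 2.7 CPM, 35.4-fold by the ratio of means (log2 fold change -5.19 ± 0.17, adjusted p = 1.85e-11). Sox2 fell from 45.2 and 39.8 to 5.74 and 7.05 CPM (log2 fold change -2.74 ± 0.13, adjusted p = 1.43e-09) and Klf2 from 12 and 13.3 to 0.0413 and 0.477 CPM (log2 fold change -5.73 ± 0.36, adjusted p = 1.98e-08). All 3 encode factors of the pluripotency network, and their Flk1-positive values lay far below those of induced and of untreated samples, which held 262 and 242 CPM of Nanog, 88.8 and 80.6 CPM of Sox2 and 13.1 and 12.9 CPM of Klf2.

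Tcl1, a cofactor of Akt kinases in embryonic stem cells, had 1.95 and 2.25 CPM in the induced samples and 0 counts in both Flk1-positive libraries. With 3 counts taken as the floor for the group, it was at least 30.1-fold lower (adjusted p = 4.83e-06). Prdm14, a repressor of differentiation, had 46 counts in the induced samples and 0 in the Flk1-positive samples, at least 9.30-fold lower.

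Pou5f1, which encodes Oct4, did not follow. It was 736 and 713 CPM in induced and 858 and 796 CPM in Flk1-positive samples, higher in both of the latter but not past the threshold (log2 fold change 0.19 ± 0.13, adjusted p = 0.24), beside 1033 and 933 CPM without doxycycline. It passed as higher under 6 alternatives at log2 0.19 to 0.24, among them without either doxycycline day 2 library (adjusted p = 0.0156 and 0.0158) and with length and GC trends removed (adjusted p = 0.0173). The RNA-binding protein Lin28a fell (-0.59 ± 0.08) and its paralogue Lin28b rose (0.51 ± 0.11). Klf4 did not pass (log2 fold change 0.19 ± 0.27, adjusted p = 0.602). The 15 largest falls by fold held Klf2, Nanog, Lefty1, Lefty2, Nodal, Gdf3, Wnt8a, Sp8, Foxa2 and, from outside those pathways, Eras, a Ras protein of embryonic stem cells (6.65 and 6.5 to 0.372 and 0 CPM, -4.95 ± 0.41), Trim67 (-5.11 ± 0.25), Foxb1 (-4.26 ± 0.44), Efemp1 (-3.91 ± 0.23), Tcea3 (-3.73 ± 0.20) and Stk32a (-3.51 ± 0.31).

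The genes that mark the formative epiblast, the state just after naive pluripotency, fell in 13 of 16 cases and rose in 1. The growth factor Fgf5 fell from 97.2 and 94.2 to 39.4 and 38.3 CPM (log2 fold change -1.30 ± 0.09, adjusted p = 3.60e-08), Otx2 from 53.3 and 55.2 to 25.7 and 27.1 CPM, Zic2 from 162 and 169.6 to 64.8 and 67.1 CPM and Foxd3 from 13.7 and 13.6 to 2.56 and 2.44 CPM. Sox3 (-1.99 ± 0.19) and Zic5 (-1.49 ± 0.15) fell in the same way. The de novo methyltransferase Dnmt3b fell by less (-0.46 ± 0.08) and its cofactor Dnmt3l by more (-2.99 ± 0.22). Dnmt3a was the member that rose, from 506 and 512 to 619.7 and 611 CPM (log2 fold change 0.27 ± 0.08, adjusted p = 0.0141), a call lost without any one of the 4 libraries.

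Of 12 tested genes of Nodal signalling, 6 fell and 2 rose (1 without Flk1-positive replicate 1). The ligand Nodal dropped from 47.4 and 47 to 3.92 and 3.66 CPM (log2 fold change -3.63 ± 0.13, adjusted p = 4.93e-11) and its co-receptor Tdgf1 from 186 and 181 to 21.7 and 22.3 CPM (log2 fold change -3.06 ± 0.10, adjusted p = 1.85e-11). The feedback inhibitors Lefty1 (9.56 and 11.9 to 0.248 and 0.212 CPM, -5.50 ± 0.38) and Lefty2 (15.7 and 17.9 to 0.95 and 0.318 CPM, -4.64 ± 0.26) and the ligand Gdf3 (-4.76 ± 0.29) fell as well. Each of these was already lower in induced than in untreated samples, which held 153 and 141 CPM of Nodal and 621 and 692 CPM of Tdgf1.

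Wnt genes fell more often than they rose. Of 23 targets, effectors and inhibitors, 13 fell and 2 rose, and of 20 ligands and receptors 8 fell and 3 rose (5 fell without induced replicate 2 or without Flk1-positive replicate 1). The ligand Wnt8a was at 17.4 and 16.8 CPM in induced and 0.496 and 0.212 CPM in Flk1-positive samples (log2 fold change -5.51 ± 0.24, adjusted p = 7.65e-10). The zinc-finger targets Sp5 (53.1 and 50.2 to 8.96 and 6.2 CPM) and Sp8 (15.1 and 17.7 to 1.24 and 0.53 CPM) fell too, with log2 fold changes of -2.75 and -4.15. Lgr5, a receptor for R-spondins, went the other way, from 10.2 and 11.1 to 43 and 46.1 CPM (log2 fold change 2.07 ± 0.20, adjusted p = 1.26e-06).

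FGF ligands moved in opposite directions. Fgf8, the ligand of the primitive streak, fell from 33.4 and 27.3 to 3.92 and 2.81 CPM (log2 fold change -3.15 ± 0.21, adjusted p = 5.53e-08), and Fgf17 with it (-3.90 ± 0.48). Fgf3 rose from 9.39 and 12.6 to 53.5 and 44.5 CPM (log2 fold change 2.15 ± 0.24, adjusted p = 6.77e-06). In the FGF list 5 of 12 rose and 4 fell, and 3 rose without induced replicate 2 or without either Flk1-positive library. Feedback genes of ERK signalling were split too: Dusp4 (0.78 ± 0.09) and Spry1 (0.73 ± 0.10) rose, Spred2 (-0.66 ± 0.14) and the immediate early gene Egr1 (-1.43 ± 0.19) fell.

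The primitive streak and mesendoderm list fell in 17 of 25 genes and rose in 5. Eomes, a T-box factor of streak and endoderm, fell from 336 and 333 to 123 and 130.2 CPM (log2 fold change -1.40 ± 0.11, adjusted p = 1.56e-07) and the homeobox gene Mixl1 from 99.5 and 89.5 to 38.6 and 33.9 CPM (log2 fold change -1.38 ± 0.10, adjusted p = 8.33e-08). Mesp1, a factor of early heart mesoderm (2.77 and 1.56 to 0.372 and 0.477 CPM, -2.36 ± 0.46), and Gsc, the organizer homeobox gene (5.99 and 4.36 to 1.78 and 0.689 CPM, -2.01 ± 0.33), fell from levels already below the untreated ones (20.02 and 21.6 CPM of Mesp1 and 30.5 and 28.4 CPM of Gsc).

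The 5 that rose were T, Evx1, Lhx1, Cyp26a1 and Tbx6. T, the brachyury factor of nascent mesoderm, took an intermediate level: 368 and 356 CPM in induced and 577 and 546 CPM in Flk1-positive samples (log2 fold change 0.63 ± 0.08, adjusted p = 3.00e-05), against 791 and 878 CPM in untreated samples. Evx1, a homeobox gene of the posterior streak, took the same order, with 24.7 and 20.6, 49.4 and 44.2 and, untreated, 75.8 and 75.5 CPM (log2 fold change 1.05 ± 0.14, adjusted p = 3.28e-05). Lhx1 went from 7.44 and 6.99 to 33.4 and 29.5 CPM (log2 fold change 2.12 ± 0.14, adjusted p = 4.25e-08). Cyp26a1, which degrades retinoic acid, was higher in Flk1-positive samples (60.4 and 58.9 CPM) than in induced (9.64 and 11.1 CPM) and untreated (24.5 and 26.5 CPM) samples (log2 fold change 2.52 ± 0.14, adjusted p = 5.10e-09). Tbx6, of paraxial mesoderm, was low throughout (2.39 and 2.51 to 5.7 and 4.77 CPM, log2 fold change 1.10 ± 0.31, adjusted p = 0.0108), and its call was lost without either induced library or without Flk1-positive replicate 1.

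**Figure D3:**
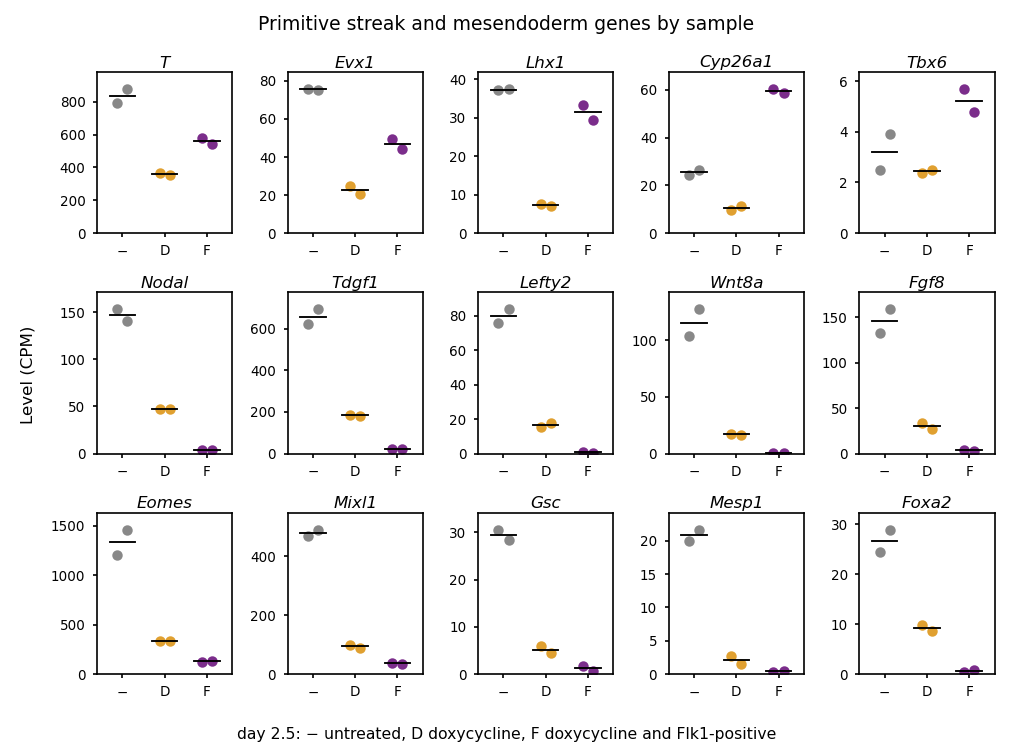
Levels (CPM, axis from 0) of 15 genes in the 2 untreated, 2 induced and 2 Flk1-positive samples of day 2.5; points are samples and bars are means. The upper row rises from induced to Flk1-positive samples, and the other rows are highest without doxycycline and lowest in Flk1-positive samples.

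Genes of other germ layers fell more often than they rose. In definitive endoderm 9 of 15 fell and 4 rose. Foxa2, the forkhead factor of endoderm, fell from 9.86 and 8.64 to 0.496 and 0.848 CPM (log2 fold change -3.81 ± 0.37, adjusted p = 1.56e-06), Trh, a hormone precursor, from 160.5 and 171 to 18.4 and 17.1 CPM (log2 fold change -3.22 ± 0.11, adjusted p = 2.15e-11) and Sox9 from 34.1 and 36.3 to 10.1 and 10.1 CPM (-1.80 ± 0.20). The 4 that rose were Cxcr4, Gata6, Hhex and Sox17.

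In neuroectoderm 6 of 7 fell and 0 rose, with 3 that fell when induced replicate 1 or Flk1-positive replicate 1 was left out. Zic1 had 133 counts in induced and 1 in Flk1-positive samples, a ratio of 80.7 (95% counting interval 14.2 to 3210). Neuronal tubulin Tubb3 fell from 50.8 and 49.1 to 24.3 and 24.2 CPM (log2 fold change -1.04 ± 0.12, adjusted p = 9.73e-06). In the list for heart and lateral mesoderm, with 17 tested, 4 rose and 3 fell, with 2 higher when any one of the 4 libraries was left out and 5 lower without induced replicate 1; among them Gata6 rose (0.99 ± 0.14) and Mab21l2 fell (-2.18 ± 0.17).

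In the list of epithelial and mesenchymal genes 9 of 19 fell and 3 rose. Cdh1, the epithelial cadherin, was 909 and 938 CPM in induced and 392.2 and 393 CPM in Flk1-positive samples (log2 fold change -1.23 ± 0.09, adjusted p = 1.38e-07), and the tight junction genes Cldn6 (119.6 and 116 to 28.7 and 23.9 CPM, -2.16 ± 0.11) and Cldn7 (-1.39 ± 0.13) and Epcam (-0.71 ± 0.08) were lower too. Fibronectin, Fn1, had one of the largest gains in level, from 1570.0 and 1614 to 2664 and 2898 CPM (log2 fold change 0.80 ± 0.12, adjusted p = 9.92e-05). The mesenchymal factor Snai1 fell (-0.84 ± 0.11), and Vim did not pass (log2 fold change 0.22 ± 0.10, adjusted p = 0.0844), though it did without either doxycycline day 2 library (log2 0.22, adjusted p = 0.00677 and 0.00676). Of 11 smooth muscle and SRF-type genes 8 fell and 0 rose, led by Cnn1 (26.7 and 25.6 to 10.1 and 10.4 CPM, -1.35 ± 0.12).

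Guidance and matrix genes were split. Among 32 ephrin, semaphorin, plexin and netrin-type genes 8 rose and 12 fell (5 rose without induced replicate 1 or without Flk1-positive replicate 1). Efnb2, the arterial ephrin, rose from 96.5 and 105 to 223 and 225 CPM (log2 fold change 1.15 ± 0.10, adjusted p = 4.33e-07) and Sema3f from 56.7 and 52.9 to 164 and 131 CPM, while Sema6a fell from 56 and 59.9 to 11.5 and 11.3 CPM (log2 fold change -2.34 ± 0.11, adjusted p = 1.12e-09). Among 30 matrix and integrin genes 7 rose and 9 fell (5 without induced replicate 1), with collagen IV chains Col4a1 (0.43 ± 0.08) and Col4a2 (0.55 ± 0.09) higher and Lamc1 (-0.74 ± 0.12), Itgb1 (-0.60 ± 0.10) and Spp1 (-3.44 ± 0.39) lower.

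Of 22 genes of glycolysis and the hypoxia response 14 fell and 3 rose. Pkm2, which encodes the M-type pyruvate kinase, was 3152 and 3275 CPM in induced and 1536 and 1557 CPM in Flk1-positive samples (log2 fold change -1.06 ± 0.08, adjusted p = 7.52e-08). Tpi1 (345 and 342 to 164 and 179 CPM), Gpi1 (-0.86 ± 0.08), Ldha (-0.60 ± 0.09) and the gatekeeper of pyruvate oxidation Pdk1 (341 and 349 to 168 and 165 CPM, -1.05 ± 0.09) fell together. Pfkp, a phosphofructokinase, rose (0.60 ± 0.12). Gapdh was not past the threshold at 42.4 and 38.7 and 42.5 and 43.5 CPM, but it has near-identical copies in the genome and its value here is uncertain.

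Targets of p53 fell in 10 of 15 cases and rose in 2, the latter 0 or 1 when any one of the 4 libraries was left out. Pmaip1, the pro-apoptotic Noxa, fell from 16.8 and 18.6 to 3.76 and 3.92 CPM (log2 fold change -2.21 ± 0.17, adjusted p = 1.98e-07), and Trp53 itself from 518 and 559 to 391 and 362 CPM (-0.52 ± 0.08). The best known targets Cdkn1a (log2 fold change -0.01 ± 0.09, adjusted p = 0.954) and Mdm2 (log2 fold change 0.05 ± 0.09, adjusted p = 0.687) did not pass. In the integrated stress response 8 of 18 fell and 0 rose, with Asns (-0.93 ± 0.09) and Ddit4 (-1.25 ± 0.15) lowest in p; 5 fell without induced replicate 1 or Flk1-positive replicate 1.

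Cell cycle genes did not move as a block: 6 of 30 rose and 12 fell. The G1 genes Ccnd2 (32.5 and 32.8 to 11.5 and 14.4 CPM, -1.34 ± 0.13), Cdk6 (-1.44 ± 0.16), Ccnd1 (-0.51 ± 0.08) and Ccne1 (-0.60 ± 0.08) were lower. The mitotic genes Aurkb (0.70 ± 0.11), Ccnb1 (0.55 ± 0.09), Cdk1 (0.45 ± 0.09) and Top2a (1066 and 1102 to 1507 and 1623 CPM, 0.53 ± 0.09) were higher. Mki67 did not pass (log2 fold change 0.09 ± 0.15, adjusted p = 0.667). Cdk2, which acts at the step from G1 to S phase, was higher too (log2 0.47 to 0.50 with 1 library left out at a time). G1 genes were thus not all lower. Aurkb, Ccnb1, Cdk1 and Cdk2 were chosen after their values were seen.

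In the SWI/SNF remodelling complex 3 of 24 genes rose and 7 fell, a share near the background, and 1 rose and 2 or 3 fell when any one of the 4 libraries was left out. Its ATPases Smarca4, also called Brg1 (675 and 696 against 619 and 555 CPM, log2 fold change -0.23 ± 0.09, adjusted p = 0.0518), and Smarca2 (106 and 109 against 127 and 134 CPM, log2 fold change 0.27 ± 0.11, adjusted p = 0.061) were not past the threshold. Both calls depend on the setting: Smarca4 passed as lower under 11 alternatives (for example limma-voom, log2 -0.23, adjusted p = 0.0364, or without either doxycycline day 2 library, adjusted p = 0.00299 and 0.00304), and Smarca2 as higher under 8 (limma-voom, log2 0.27, adjusted p = 0.0213; without those libraries 0.00820 and 0.00843). Of 23 DNA methylation and Polycomb genes 6 rose and 8 fell; 2 or 3 rose without either induced library or without Flk1-positive replicate 1, and 5 fell without induced replicate 2 or Flk1-positive replicate 1. Over all tested genes 20.5% rose and 21.3% fell. Ezh1 rose (53.5 and 51.2 to 103 and 101 CPM, 0.96 ± 0.11) and Rnf2 fell (-0.68 ± 0.11). Meis2, a homeobox gene of the TALE class, fell from 8.82 and 11.5 to 1.03 and 1.27 CPM (log2 fold change -3.15 ± 0.24, adjusted p = 1.20e-07).

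Immediate early genes, which also respond to cell dissociation, fell in 8 of 19 cases and rose in 3. Egr2 rose from 3.93 and 4.04 to 22.1 and 19.3 CPM (log2 fold change 2.38 ± 0.25, adjusted p = 3.74e-06) and the stress factor Atf3 from 11.2 and 9.73 to 24.7 and 26.9 CPM (adjusted p = 1.89e-05), while Dusp1 fell from 58 and 57.9 to 38.3 and 33.3 CPM (-0.69 ± 0.10). Among 16 genes of cholesterol synthesis 3 rose and 5 fell (18.75% and 31.25%, against 20.5% and 21.3% over all tested genes). Without induced replicate 2, 1 rose and 2 fell, and without Flk1-positive replicate 2, 3 fell.

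**Figure D4:**
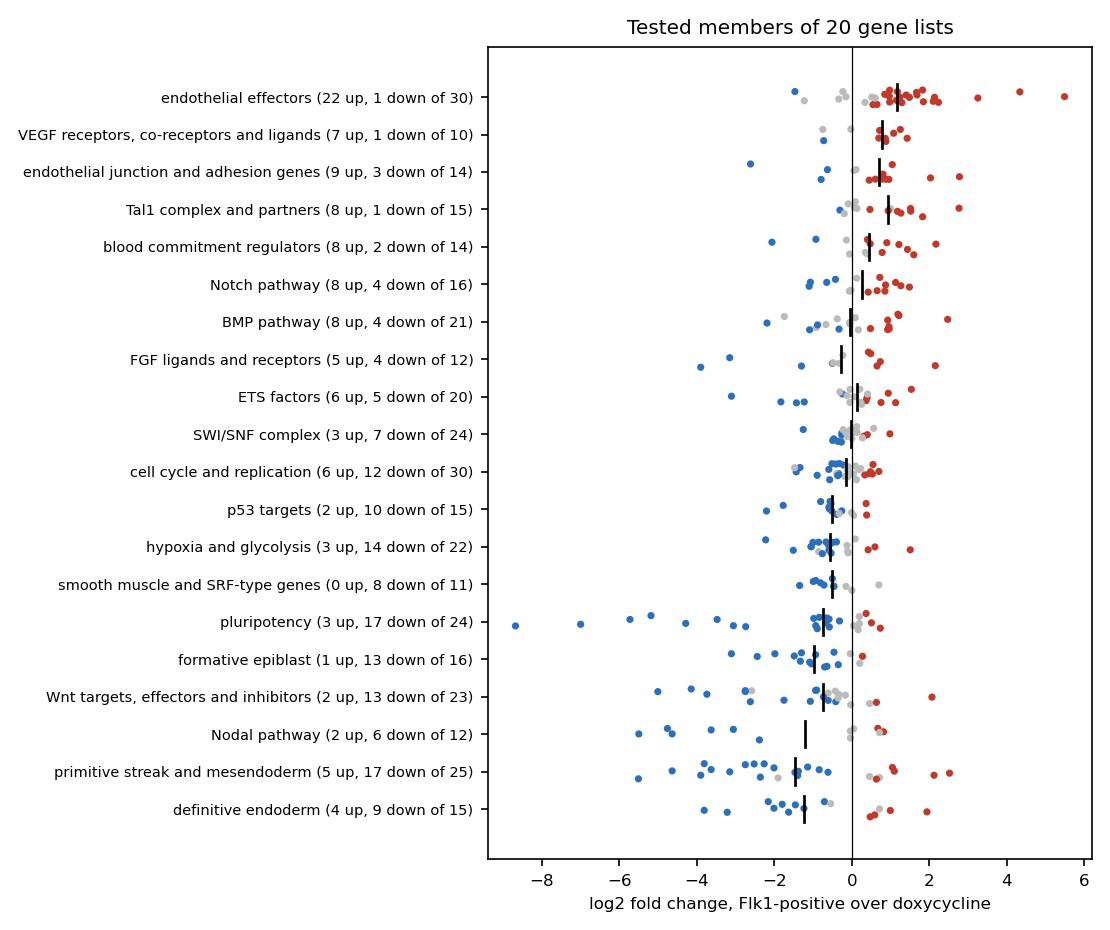
Log2 fold changes of Flk1-positive over induced samples for the tested members of 20 gene lists; each point is a gene, red and blue past the threshold, grey not, and the black bar is the list's median. Endothelial effectors lie mostly to the right with a median of 1.16, and primitive streak, definitive endoderm and pluripotency genes mostly to the left.

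The genes with the largest change in level, as opposed to fold, were partly of other kinds. Beside Kdr, Tal1 and Fn1, the 10 largest gains in CPM included Shank3 (218 and 192 to 752 and 637 CPM, log2 fold change 1.76 ± 0.10, adjusted p = 5.94e-09), Mid1 (422 and 389 to 1035 and 1045 CPM), Ivns1abp (329.9 and 306 to 711 and 780.0 CPM), Amot, known for binding angiostatin and for Hippo signalling (786 and 783 to 1299.8 and 1348 CPM), and Igfbp4 (569.9 and 634 to 1079.7 and 994 CPM). Among the 10 largest losses were the chaperone Hsp90ab1, from 12289 and 12966 to 7510.0 and 8305 CPM (log2 fold change -0.68 ± 0.08, adjusted p = 1.84e-05), the nucleolar protein Ncl (-0.59 ± 0.10), the translation factors Eef2 (-0.47 ± 0.08) and Pabpc1 (-0.73 ± 0.11), and the actin regulators Cfl1 (-0.91 ± 0.08) and Pfn1 (-0.89 ± 0.09). Among the 3637 tested genes with the highest level in induced samples, from 70.8 CPM upwards, 32.5% fell and 16.4% rose.

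Markers of other cell types were summed per library. Endothelial markers (Cdh5, Pecam1, Tek, Tie1 and Esam) came to 71.7 and 81.8 CPM in induced and 204 and 205 CPM in Flk1-positive samples, with 3 of 5 higher and 1 lower. Haematopoietic markers, mostly Tal1, came to 186 and 199 against 688 and 667 CPM. Leukocyte markers summed to 0.906 and 0.520 CPM against 2.6 and 2.01 CPM, and Ptprc and Tyrobp had 0 counts in all 4 libraries. Cardiac markers summed to 2.14 and 3.06 against 2.77 and 1.43 CPM, with Tnnt2 at 0 counts in all 4, and extraembryonic endoderm markers to less than 1 CPM in each library, with Afp at 0 counts in all 4.

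Pluripotency markers summed to 916 and 886 CPM in induced and 896 and 838 CPM in Flk1-positive samples, most of it Pou5f1, while the other 4 markers fell. Definitive endoderm markers summed to 181 and 192 against 65.3 and 58.4 CPM. Trh made up most of the induced sum. Trh and Foxa2 fell, Sox17 rose and Cer1 was not past the threshold. Primitive streak markers summed to 806 and 780 against 739 and 710 CPM, with T higher and the other 3 lower, neuroectoderm markers to 53.6 and 51.3 against 24.9 and 25.4 CPM, and smooth muscle markers to 32.4 and 30.8 against 15.3 and 16.5 CPM. The smooth muscle sum was mostly Cnn1, which fell. Acta2 (5.47 and 4.94 against 5.08 and 5.35 CPM) and Myh11, below 1 CPM in each library, were not past the threshold. Paraxial markers, nearly all Tbx6, were at 2.64 and 2.51 against 5.7 and 4.77 CPM, with Msgn1 and Meox1 at 0 counts in the Flk1-positive libraries. In the induced libraries Msgn1 had 1 and 0 counts and Meox1 8 and 0, too few to read a loss from. Fibroblast markers were at 7.58 and 7.34 against 5.78 and 4.98 CPM, with Col3a1 and Dcn at 0 counts in the Flk1-positive libraries. In the induced libraries Col3a1 had 11 and 16 counts, and Dcn had 5 and 0, too few to read a loss of Dcn from. The part of these other cells in the gains and losses was not tested.

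Rows for noncoding RNA stood apart from protein-coding genes. Of 69 small nucleolar RNA rows 53 rose and 0 fell, with a median log2 fold change of 2.14 and a summed level of 85.3 and 69.5 CPM in induced and 278 and 299 CPM in Flk1-positive samples. The rows Snord52, Snord47 and Snord2 overlap over their whole length with exons annotated for other genes (1110038B12Rik, Gas5 and Eif4a2), so that reads of the host and of the small RNA cannot be told apart. Of 370 long noncoding rows 110 rose and 21 fell, among them Gas5 (92.2 and 79 to 318 and 319.8 CPM, 1.90 ± 0.17), Snhg1 (1.74 ± 0.15) and Malat1 (136 and 116 to 375 and 451 CPM, 1.71 ± 0.11). Among 13811 protein-coding genes 19.9% rose and 22.1% fell.

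Ribosomal protein rows rose in 32 of 81 cases and fell in 9 (5 without either induced library or without Flk1-positive replicate 2). Many of these genes have near-identical copies, and rows such as Rpl3 (12.3 and 11.7 to 51 and 49.4 CPM) and Rpl10a (24.7 and 22.8 to 127 and 97.5 CPM) are uncertain for that reason. Induced libraries were also deeper (36068329 and 34650432 counts) than Flk1-positive ones (23042226 and 18074070 counts). The fold changes had rank correlations of 0.0316 with exon length and 0.00547 with GC content across 14370 genes, which are not independent replicates. The difference between the 2 Flk1-positive libraries, however, had a rank correlation of 0.368 with GC content and -0.120 with exon length. With both trends removed, 3453 genes were higher and 3526 lower. The part of RNA class, depth or handling in the results above was not tested.

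**Figure D5:**
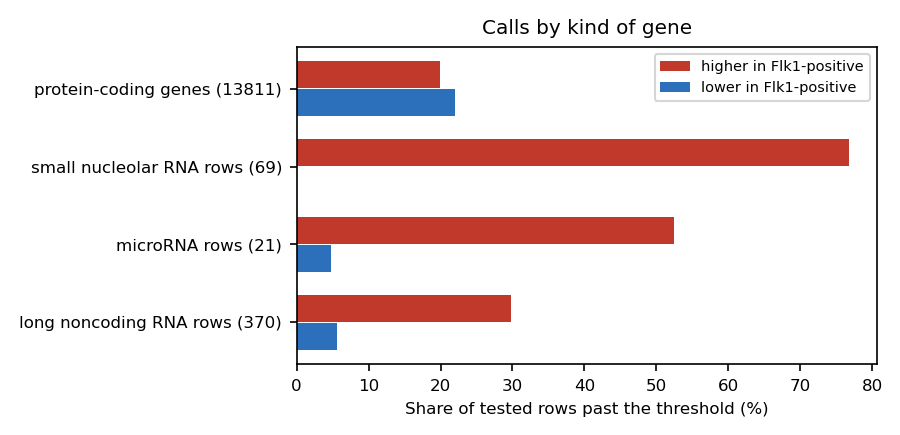
Share of tested rows past the threshold in each direction (percent, axis from 0) for 4 kinds of gene, with the number tested in brackets. Protein-coding genes are close to even, and of the 69 small nucleolar RNA rows 76.8% are higher and none past the threshold is lower.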

How the data were processed

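RNA-seq gene counts from 10 libraries of mouse embryoid bodies were used as deposited: whole-number counts per gene, made with TopHat, HTSeq and the mm10 genome, with DESeq2 also named, per the submitters' processing notes (the labels used here give no version, annotation, strand setting or rule for multi-mapping reads). The table held 23429 entries, of which 92 were spike-ins with 0 counts (0% of counts) and took no part, and 4811 genes were at 0 throughout.

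Counts were fitted with edgeR 4.0.16 in R 4.3.3: genes kept by a minimum count of 10 and minimum total of 15 (14548 tested), TMM scaling, 1 mean per group over all 10 libraries (5 residual degrees of freedom), robust quasi-likelihood test, and Benjamini-Hochberg adjustment over all genes with a threshold of 0.05. Values after ± are standard errors. Totals ranged from 18074070 to 36068329 counts, so 0 counts allow up to 0.0824 and 0.0866 CPM in the induced libraries and 0.124 and 0.159 CPM in the Flk1-positive ones (3 counts, counting error only). On simulated counts for this comparison (14231 genes), 58.6%, 77.5% and 98.6% of 1.5-, 2- and 4-fold changes were called, and 7.02% of the calls were false. Only 58, 71 and 71 genes were changed there, far fewer than passed in the data, so these rates need not carry over. Replicates of all groups differed by more than sampling noise, and the doxycycline day 2 pair differed most. Its chi-square per gene was 32.0, against 3.33 to 9.65 in the other groups. Its replicate difference had a rank correlation of -0.454 with exon length. That pair is outside the comparison but enters the shared estimate of the spread. Without both of its libraries, 3766 genes were higher and 3815 lower.

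The samples, gene lists and tests were chosen with earlier results of these data known. Lists held 838 genes of the table, 720 of them tested. Genes named were Etv2 and Kdr, the 15 largest rises and falls by fold and 10 by CPM (at least 5 CPM, no overlap, named symbol), up to 6 genes per list by adjusted p, all of a list of 10 or fewer, and list members not past the threshold. 41 further genes (such as Pecam1, Erg, T, Eomes, Gas5 and Malat1) were chosen after their values were seen. Coordinates are GENCODE M21 (GRCm38) and promoters RefSeq GRCm38.p6. Alternatives were DESeq2 1.42.0 (test and scaling), limma 3.58.1 (voom), upper-quartile scaling, other filters, thinned counts, removal of length and GC trends, a replicate block, only 4 libraries, leaving out each library, and, chosen after seeing the data, leaving out both doxycycline day 2 libraries.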

Additional observations from a re-analysis of the deposited data

How the results depend on the processing

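Over the alternatives tried, the count of higher genes ran from 1909 to 3843 and that of lower genes from 2095 to 3847. With 1 library left out at a time the ranges were 1909 to 3779 and 2095 to 3847, where the lone sample of a group is assumed to vary like the other groups. The labels do not say whether replicate numbers pair the samples. Replicate differences of the compared groups had a correlation of 0.00114, which cannot show that pairing is absent. The replicate block gave 3063 higher and 3190 lower genes. Upper-quartile scaling gave 2696 and 3474, which moved the balance towards lower genes. Kdr rose under every alternative, by 1.20 to 1.3. Etv2 kept its direction and passed the threshold at 0.25 without both doxycycline day 2 libraries, at 0.25 without either one of them, at 0.26 with length and GC trends removed, at 0.25 with that and the replicate block, at 0.25 with no filter and at 0.25 in the 4 libraries alone. With 1 library left out, Etv2 lay between 0.20 and 0.30. Of list counts, 118 values moved by over 1.5 times and 1774 did not. For single named genes 119 values lost the call, 46 gained it, 6915 did neither and 0 reversed. The causes were not tested. Genes of few counts are limited by depth, which was lower in the Flk1-positive libraries.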

Other observations

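Some gene families outside the lists were looked at after their values were seen, and they are given as counts. Over all tested genes 20.5% rose and 21.3% fell. Of 24 heat shock genes 15 fell and 3 rose, and of 8 chaperonin subunits 6 fell and 0 rose, with Cct8 at 929.8 and 957 CPM in induced and 598 and 647 CPM in Flk1-positive samples (-0.60 ± 0.08) and the mitochondrial pair Hspd1 (-0.34 ± 0.08) and Hspe1 (-0.68 ± 0.14) lower too. Of 6 genes for 14-3-3 adaptor proteins 4 fell and 0 rose, among them Ywhae (2098 and 2106 to 1075 and 1204 CPM) and Ywhag (511 and 521 to 357 and 331 CPM). Of 31 forkhead genes 15 fell and 1 rose, and of 10 claudins 7 fell and 2 rose.

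Kinesins, the motors of spindle and transport, moved the other way, with 15 of 39 higher and 2 lower, and Kif11 at 262 and 255 CPM in induced and 346 and 364 CPM in Flk1-positive samples (0.46 ± 0.10). Of 20 hnRNP genes 11 fell and 3 rose, while 11 SR splicing factors divided into 5 higher and 4 lower. Of 11 host genes of small nucleolar RNAs 9 rose and 0 fell, with a median log2 fold change of 1.45.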
